A study of Mus musculus with 4 samples.

Results

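The genes described here are the subunits of the vacuolar proton pump and the best known acid-base genes of the kidney: every gene whose symbol starts with Atp6v0 or Atp6v1, with Atp6ap1, Atp6ap2, Foxi1, Slc4a1, Slc26a4, Rhcg, Rhbg, Car2, Car12, Car14 and Car15. They are 33 of the 27998 genes in the deposited matrices and were chosen by symbol: 13 subunits of the V1 part, 9 of the V0 part, 2 accessory subunits and 9 other acid-base genes. They were read in 4 droplet single-cell libraries of mouse kidney, 1 per group: untreated kidneys, and kidneys taken at day 2, day 7 and day 30 after 35 min of ischemia-reperfusion injury (IRI). All mice, the untreated ones included, carried the BAC-CluGFP transgene, a reporter for clusterin, and GFP+ cells were sorted before capture, so each library shows reporter-positive cells and not the whole kidney. The sources used here do not give strain, age, sex or the number of animals per library, and red blood cells had been lysed before the sort, per the labels.

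The vacuolar pump uses ATP, split by its V1 part, to drive protons through its membrane-embedded V0 part. Every cell uses it to acidify lysosomes. Intercalated cells of the connecting tubule and collecting duct also place it at the cell surface, with particular subunit forms, and Foxi1 is the forkhead transcription factor on which these cells depend. Type A cells secrete acid and return bicarbonate to the blood through Slc4a1 (band 3, also a red cell protein), whereas type B cells secrete bicarbonate through Slc26a4 (pendrin). Rhbg and Rhcg carry ammonia, and the carbonic anhydrases supply protons and bicarbonate.

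The untreated library had 9286 barcodes, and those of days 2, 7 and 30 had 9023, 1930 and 6991. They held 49397016 to 98818914 unique molecular identifiers (UMIs) each, and 23190 of 27230 barcodes were kept. Each pair of libraries shared 4 to 20 barcodes. The lowest UMI total of a barcode was 2335, 3881, 18362 and 5976 in time order, so shallow cells are missing at day 7, and the median mitochondrial share of UMIs in kept cells was 2.82 to 3.68% after injury against 14.5% untreated. Cells were clustered and named without the 33 genes, so that their levels by cell class were not set by the clustering. There were 838 untreated intercalated-like cells, and 122, 20 and 93 at days 2, 7 and 30. All 14 of their marker genes led both clusters that held them. All untreated cells were in cluster 9 and all cells of days 2 and 30 in cluster 29, so the library and the cluster cannot be told apart in comparisons with the untreated library.

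Levels are UMIs of a gene in the class and library, scaled to a total of 1000000 UMIs (CPM); 3′ UMI counts do not scale with transcript length. With 1 library per group there was no replicate and no test. A gene was measured if it reached 20 CPM in either group and 20 UMIs in both together, and called higher or lower if its level differed at least 2-fold and the exact 95% counting interval of the ratio excluded 1. These intervals cover only the error of counting, so they say nothing of the spread between animals, and classes under 50 cells were not compared.

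The 250 bases before the RefSeq start of 4 members (GRCm38.p6, 5′ to 3′ on the gene's strand) are shown because the subunit results turn on these genes: Atp6v1b1, Atp6v0a4 and Atp6v1g3 are the main B, a and G forms of intercalated-like cells, and Atp6v1a is the single catalytic A subunit. Capitals mark CACGTG, the core of a lysosomal gene element, or the forkhead core GTAAACA, here as its reverse complement.
Atp6v1b1 (chr6:83742767-83743016, plus strand): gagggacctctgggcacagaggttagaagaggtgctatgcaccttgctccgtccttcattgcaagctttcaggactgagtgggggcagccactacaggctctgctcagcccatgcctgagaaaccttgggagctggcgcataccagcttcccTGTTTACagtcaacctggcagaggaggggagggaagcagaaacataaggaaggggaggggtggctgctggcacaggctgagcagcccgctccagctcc
Atp6v0a4 (chr6:38124587-38124836, minus strand): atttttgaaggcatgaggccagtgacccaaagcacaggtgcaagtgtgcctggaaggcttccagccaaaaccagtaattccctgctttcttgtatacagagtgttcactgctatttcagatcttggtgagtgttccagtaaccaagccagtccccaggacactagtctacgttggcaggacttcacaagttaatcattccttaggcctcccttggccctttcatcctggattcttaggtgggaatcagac
Atp6v1g3 (chr1:138273488-138273737, plus strand): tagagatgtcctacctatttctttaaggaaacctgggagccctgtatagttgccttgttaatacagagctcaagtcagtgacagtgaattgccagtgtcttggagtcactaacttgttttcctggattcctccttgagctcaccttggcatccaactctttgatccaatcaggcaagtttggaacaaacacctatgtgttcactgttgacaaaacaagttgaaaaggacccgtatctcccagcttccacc
Atp6v1a (chr16:44139260-44139509, minus strand): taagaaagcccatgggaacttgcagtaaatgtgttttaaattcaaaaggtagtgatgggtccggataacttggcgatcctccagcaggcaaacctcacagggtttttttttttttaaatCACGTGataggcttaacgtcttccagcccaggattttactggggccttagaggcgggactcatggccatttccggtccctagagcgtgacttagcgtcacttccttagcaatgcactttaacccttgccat
RefSeq promoters of 300 bases were matched by symbol for 24 of the 33 members, with 27 promoters in all. CACGTG was in 4 of the 27 (14.8%), those of Atp6v0b, Atp6v0d1, Atp6v0e and Atp6v1a, against 7.15% of 32851 promoters. GTAAACA, on either strand, was in 1 of the 27 (3.70%), that of Atp6v1b1, 98 bases before its start, against 3.65% of all promoters. Such a match is a description of letters and not of a bound site.

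In untreated kidneys, intercalated-like cells had the pump at a level apart from that of other tubule cells. Of 30 members measured, 23 (76.7%) were higher than in all other tubule-like cells together and 1 (3.33%) was lower, against a background of 16.6% of 6452 measured genes higher and 11.4% lower. In either direction 28% of all measured genes were called. The median difference was 2.07 on the log2 scale over the members and 0.31 over all measured genes. Atp6v1g3, a form of the stalk subunit G, stood at 5499.7 CPM in intercalated-like and 64.7 CPM in other tubule-like cells, 85.0-fold higher (81.5 to 88.7). Atp6v0d2, a form of the d subunit that links both parts, stood at 955.8 against 12.6 CPM, 75.7-fold higher (68.7 to 83.5), and Foxi1 at 358.8 against 5.2 CPM. The A subunit Atp6v1a, which has no second form, was also higher, 1709 against 356.3 CPM, as was the small e subunit Atp6v0e, 1265 against 347.0 CPM. The lower member was Car14, a membrane carbonic anhydrase of the proximal tubule, at 9.59 against 71.4 CPM. In intercalated-like against other tubule-like cells, Slc4a1 had 671.2 against 12.4 CPM, Atp6v1c2 887.7 against 20.2, Slc26a4 365.9 against 11.3, Atp6v1b1 789.9 against 44.7 and Rhbg 660.3 against 58.2 CPM. Smaller differences were those of Atp6v0a4 (1347 against 187.5 CPM), Car2 (2113 against 325.9), Atp6ap2 (473.3 against 87.0) and the stalk subunit Atp6v1d (807.2 against 159.7). The 6 measured members that were not called include Atp6v1b2, Atp6v1g1 and Atp6v0d1, the forms used by all cells.

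That separation was also seen after injury. At day 2, 21 of 29 measured members (72.4%) were higher in intercalated-like than in other tubule-like cells and 0 were lower, against 7.68% and 6.83% of all measured genes. At day 30, 21 of 27 (77.8%) were higher and 0 lower, against 7.43% and 12.3%. Atp6v1g3 stood at 6005 against 36.8 CPM at day 2 and at 4161 against 62.9 CPM at day 30. The other members with the largest differences at day 2 were again higher in intercalated-like cells. The exchanger Slc26a4 had 757.9 against 3.46 CPM, Foxi1 597.5 against 4.84, Atp6v1c2 462.8 against 4.17, Atp6v0d2 652.6 against 27.2, Slc4a1 148.6 against 1.00 and Car12 500.3 against 49.95 CPM. Below these came Atp6v1b1 with 517.3 against 64.3 CPM, Atp6v1a with 1316 against 285.0, Atp6ap2 with 448.1 against 94.98, Rhbg with 175.1 against 32.5 and Atp6v1d with 521.7 against 113.0 CPM. At day 30 the direction was the same for each member named. Atp6v1c2 had 496.3 against 7.51 CPM, Foxi1 400.9 against 10.02, Slc26a4 346.8 against 8.09, Atp6v0d2 786.7 against 30.5, Rhbg 241.7 against 8.72 and Car12 489.8 against 29.2 CPM. Atp6v1b1 had 593.8 against 38.4 CPM, Slc4a1 146.3 against 3.32, Atp6v0a4 888.6 against 117.4, Atp6v1a 1449 against 229.9 and Rhcg 171.2 against 24.0 CPM.

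**Figure D1:**
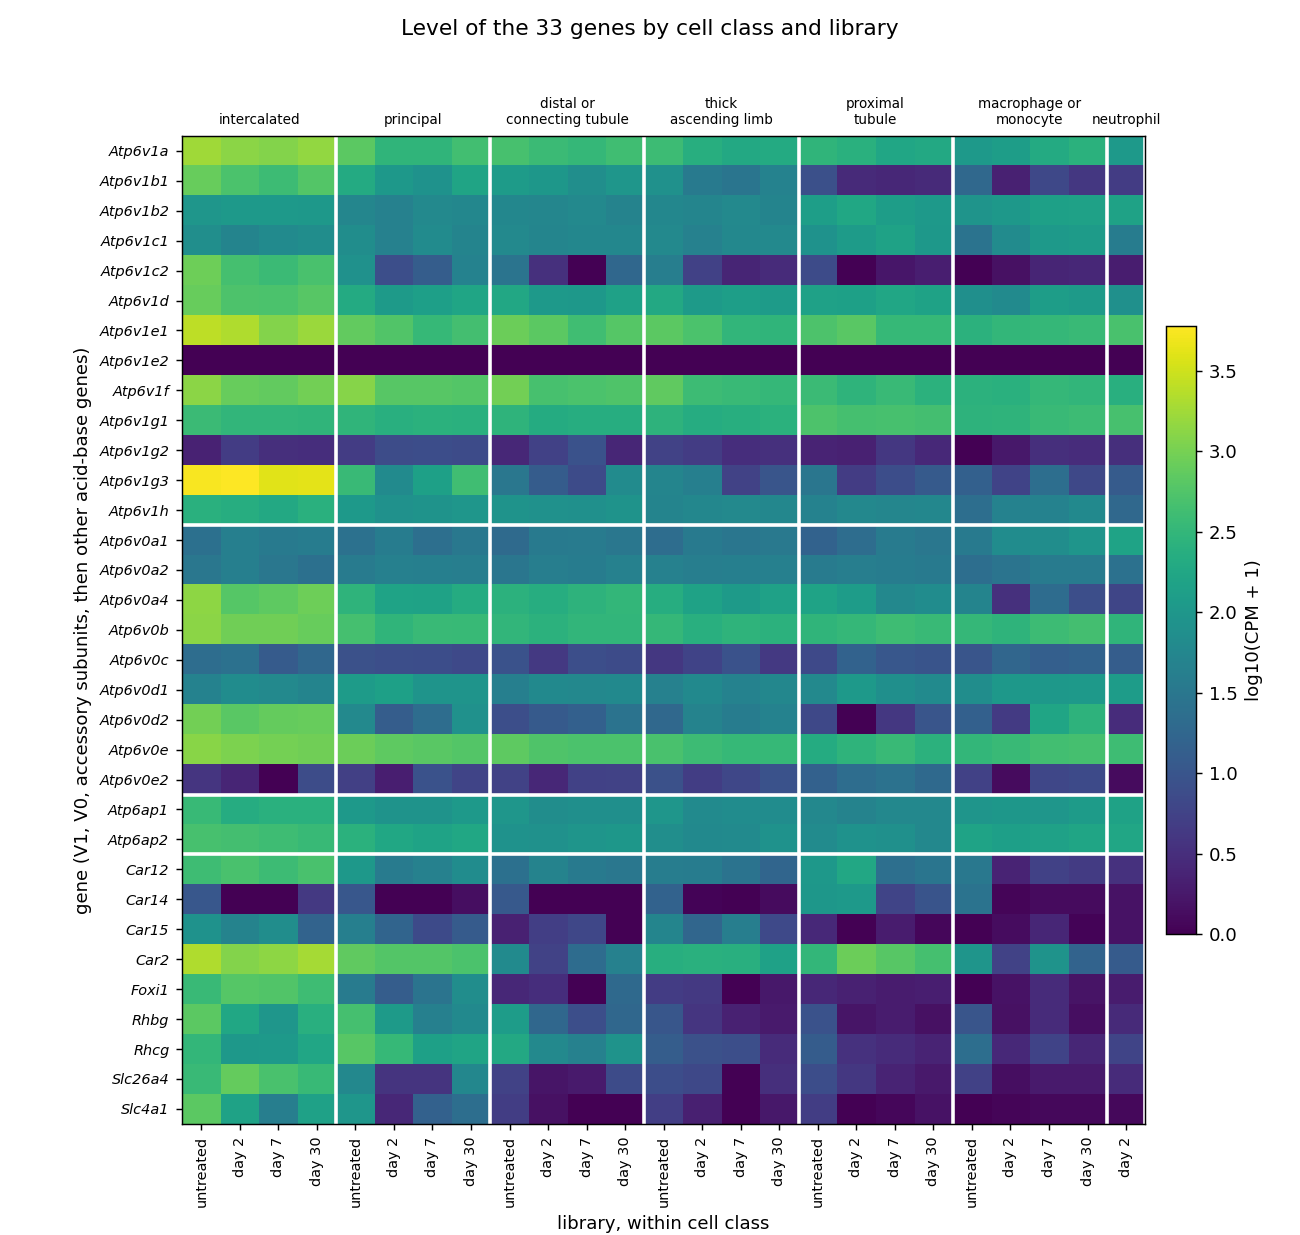
Level of each of the 33 genes (rows) as log10(CPM + 1), by cell class and library (columns). Intercalated-like cells stand out in Atp6v1g3, Atp6v0d2, Atp6v1c2, Foxi1, Slc4a1 and Slc26a4 in every library, Atp6v1e2 is dark throughout, and Atp6v0d2 is brighter in macrophage- or monocyte-like cells at days 7 and 30 than at day 2.

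The same 5 subunit forms were the main ones of intercalated-like cells in each library, and some of them were also the main ones in other tubule classes. Atp6v0a4 made up 96.2% of the UMIs of the a subunit, counted with Atp6v0a1 and Atp6v0a2, in untreated cells and 87.7, 91.2 and 93.5% at days 2, 7 and 30. The a3 form, Tcirg1, was not counted in any class. Atp6v0d2 made up 95.4, 90.6, 92.7 and 94.0% of the d subunit in the same order. Atp6v1b1 made up 89.2, 83.0, 78.5 and 85.2% of the B subunit. Atp6v1c2 made up 92.5, 90.4, 85.6 and 87.7% of the C subunit, and Atp6v1g3 93.6, 95.1, 92.8 and 93.4% of the G subunit. All 5 shares were below the untreated one at days 2, 7 and 30, but for that of Atp6v1g3 at day 2. Each form remained the main counted one of its subunit. In proximal tubule-like cells the same shares in the untreated library were 8.65% for Atp6v0d2, 5.39% for Atp6v1b1, 6.99% for Atp6v1c2 and 5.26% for Atp6v1g3. Atp6v0a4 was the main counted a form of other tubule classes too, with 82.7% in principal-like, 84.5% in distal or connecting tubule-like and 77.4% in thick ascending limb-like untreated cells. Atp6v1b1 likewise made up 79.4, 68.4 and 59.2% of the B subunit there, in the same order of classes, and the principal-like share is above the 78.5% of intercalated-like cells at day 7. Atp6v0d2 made up 33.1, 14.5 and 28.6%, Atp6v1c2 53.7, 31.6 and 40.5%, and Atp6v1g3 55.1, 9.73 and 15.4%. In proximal tubule-like cells Atp6v0a4 stood at 75.5% untreated and 65.8, 43.8 and 50.8% at days 2, 7 and 30.

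**Figure D2:**
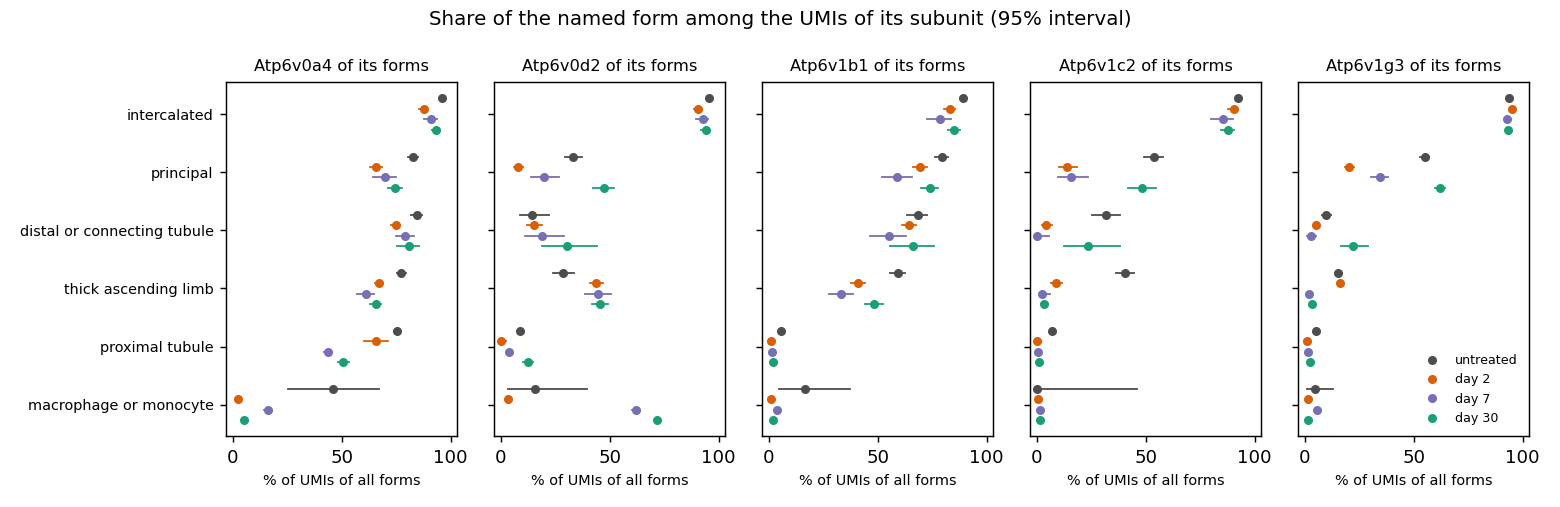
Share of 1 form among the UMIs of the counted forms of its subunit, in %, by cell class (rows) and library (colour), with exact 95% intervals as lines. The a3 form, Tcirg1, was not counted. Intercalated-like cells lie at 78.5% or more in all 5 panels, and macrophage- or monocyte-like cells move in the Atp6v0d2 panel, 3.18% at day 2, 62.3% at day 7 and 71.8% at day 30.

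After injury, the exchanger Slc4a1 and the ammonia channel Rhbg were lower in intercalated-like cells at days 2 and 30, and 1 pump subunit, Atp6v0a4, was called lower, at day 2. At day 2, 29 members were measured: 1 (3.45%) was higher than untreated and 4 (13.8%) were lower, against a background of 10.2% of 6747 genes higher and 8.11% lower. The median over the members was -0.37 on the log2 scale and that over all measured genes 0.11. The 14 intercalated markers, none a member, summed to 4233 CPM at day 2 and 4384 CPM at day 30, against 6156 CPM untreated. The largest of them, Tmem213, had 1258 and 1470 CPM against 2497 CPM, and Aqp6 298.7 and 269.8 CPM against 610.8 CPM. Kit had 512.8 and 488.7 CPM against 551.1 CPM. Above untreated at both times were Hmx2 (320.1 and 225.4 against 194.3 CPM), P2ry14 (47.8 and 61.8 against 35.9) and Pde1c (60.3 and 84.5 against 21.4). Distal or connecting tubule markers in these cells summed to 4059 and 1076 CPM against 11684 CPM; the part of either in the members' levels was not tested. At day 30, 0 of 29 were higher and 3 (10.3%) lower, against 8.9% and 4.71% of 6772 genes, with medians of -0.35 and 0.11. In either direction 18.3% of genes were called at day 2 and 13.6% at day 30. With counts scaled by the median of ratios, the split was 0 higher and 5 lower at day 2, beside 7.81% and 10.2% of all genes, and the median of all measured genes was -0.01. With doublets removed from the untreated library at the mean threshold of the day 2 and day 30 libraries, 19 members were lower at day 30, beside 8.38% of all genes. The class then differed in makeup: it held 314 day 30 cells against 93, while day 30 principal-like cells numbered 4 against 229, so the 19 are not a count for the same cells. Neutrophil markers summed to 1038 CPM in these cells at day 2 and 9.59 CPM untreated; their part in the levels was not tested.

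Slc4a1 had 671.2 CPM untreated and 148.6, 39.7 and 146.3 CPM at days 2, 7 and 30. It was called lower at days 2 and 30, by ratios of 0.221 (0.191 to 0.255) at day 2 and 0.218 (0.182 to 0.259) at day 30, and it kept that call under each alternative in which the comparison could be made. Of the red cell genes, Alas2, the heme synthesis enzyme of red cell precursors, had 0 UMIs in these cells in every library, and the globin gene Hba-a1 had at most 11.8 CPM, at day 2. Slc26a4 had 365.9 CPM untreated and 757.9, 498.1 and 346.8 CPM at days 2, 7 and 30. It was the member called higher at day 2, 2.07-fold (1.93 to 2.22), a call lost with median-of-ratios scaling and with that removal of doublets. After thinning each cell to 2000 UMIs, 13.9% (8.33 to 21.4) of intercalated-like cells had an Slc4a1 UMI at day 2 and 18.3% (11.02 to 27.6) at day 30, against 56.6% untreated. In untreated endothelial-like cells, which should lack it, 0.559% of 537 did, at a median of 3790 UMIs per cell against 9355.5 in untreated intercalated-like cells. For Slc26a4 the share was 42.6% (33.7 to 51.9) at day 2 and 36.6% (26.8 to 47.2) at day 30, against 27.6% untreated, and 0.745% in untreated endothelial-like cells. Unthinned, the shares for Slc4a1 were 68.0% untreated, 29.5% at day 2 and 32.3% at day 30.

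The ammonia channels were lower too. Rhbg, on the blood side of the cell, had 660.3 CPM untreated and 175.1, 97.0 and 241.7 CPM at days 2, 7 and 30, with ratios to untreated of 0.265 (0.232 to 0.302) at day 2 and 0.366 (0.319 to 0.418) at day 30. Rhcg had 321.8, 103.7, 110.2 and 171.2 CPM in time order, lower at day 2 and not called at day 30. The untreated library was highest for both genes.

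Among the carbonic anhydrases, cytosolic Car2 had 2113, 1179.5, 1382 and 1855 CPM and surface Car12 403.2, 500.3, 387.9 and 489.8 CPM, neither past 2-fold. Car15, which is anchored at the cell surface, had 82.1, 48.6, 70.5 and 15.2 CPM and was lower at day 30, by a ratio of 0.185 (0.101 to 0.312). Car14 had 9.59 CPM untreated, 0 at days 2 and 7 and 3.25 at day 30, and was not measured. Markers of proximal tubule summed to 8934 CPM in untreated intercalated-like cells and to 28.7, 112.4 and 448.6 CPM later; the part of such RNA in the Car14 level was not tested.

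Of the pump, Atp6v0a4 was called lower at day 2. It had 1347 CPM untreated and 599.7, 683.2 and 888.6 CPM at days 2, 7 and 30, a ratio of 0.445 (0.414 to 0.478) at day 2. Atp6v1b1, whose human counterpart, like that of Atp6v0a4, is mutated in inherited distal renal tubular acidosis, had 789.9, 517.3, 394.5 and 593.8 CPM, within 2-fold at days 2 and 30. Atp6v1c2 had 887.7, 462.8, 381.3 and 496.3 CPM, and Atp6v1g3 5499.7, 6005, 4015 and 4161 CPM, also within 2-fold at days 2 and 30. The accessory subunits Atp6ap1 (355.9, 220.0, 249.0 and 250.3 CPM) and Atp6ap2 (473.3, 448.1, 405.5 and 347.8 CPM) were not called. Foxi1 had 358.8 CPM untreated and 597.5, 564.2 and 400.9 CPM at days 2, 7 and 30, so the regulator was highest at day 2 while its level stayed within 2-fold. Atp6v1e2 had 0 UMIs in every class shown, and Atp6v0e2 reached at most 6.50 CPM and Atp6v1g2 at most 3.68 CPM in intercalated-like cells.

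Each other form stood below its partner in these cells in every library. Atp6v0a1 had 23.5 CPM untreated and 41.9, 35.3 and 37.9 CPM at days 2, 7 and 30, and Atp6v0a2 30.2, 41.9, 30.9 and 23.8 CPM. Atp6v0d1 had 46.0, 67.7, 59.5 and 49.8 CPM, beside 955.8, 652.6, 760.3 and 786.7 CPM of Atp6v0d2. None of these forms was called. Atp6v1b2 had 95.3, 106.0, 108.0 and 102.9 CPM, Atp6v1c1 72.2, 49.3, 63.9 and 69.4 CPM, and Atp6v1g1 373.8, 308.3, 310.7 and 292.6 CPM.

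**Figure D3:**
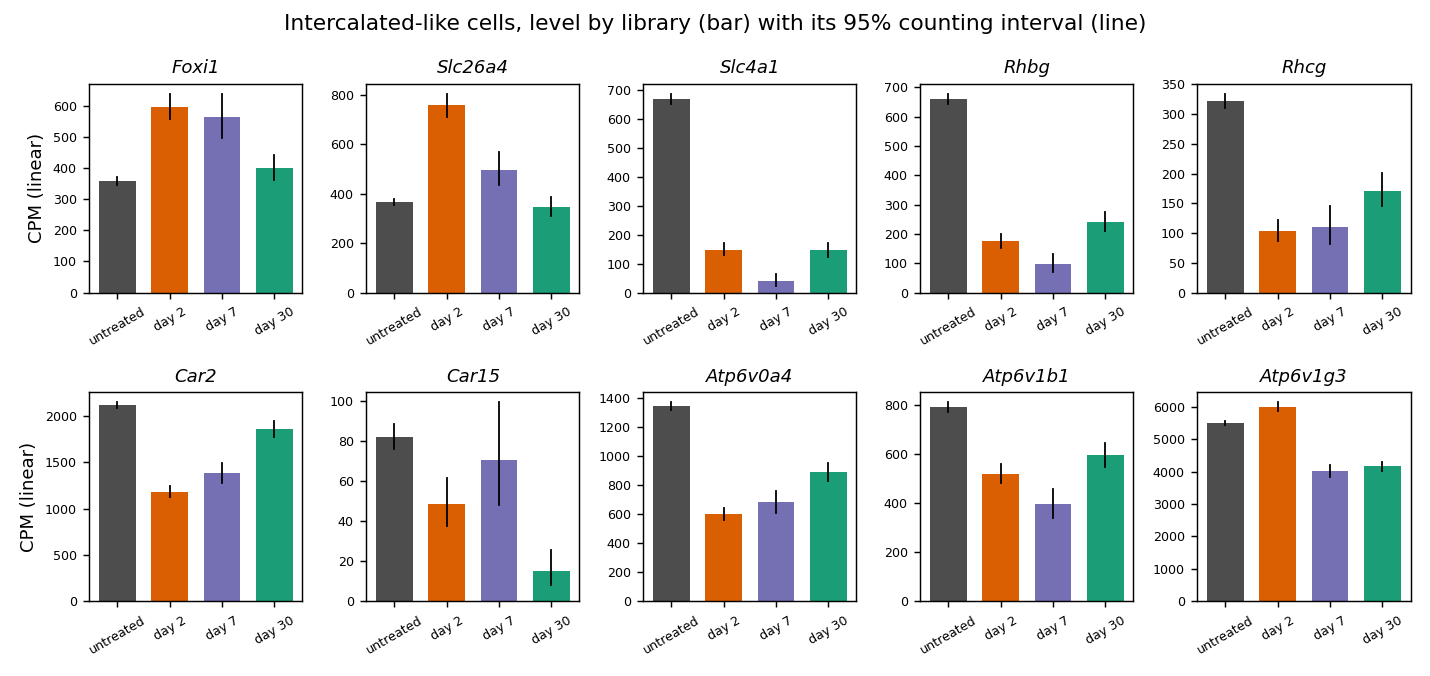
Level (CPM, linear axis from 0) of 10 members in intercalated-like cells of each library, with exact 95% counting intervals as black lines. Slc4a1, Rhbg and Rhcg are highest untreated, Slc26a4 and Foxi1 are highest at day 2, and Atp6v1g3 stays between 4015 and 6005 CPM. Day 7 rests on 20 cells.

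Since type A and type B cells use different exchangers, the cells were also divided by 6 type markers outside the 33 genes, a division added after the clusters had been seen. Aqp6, Kit, Dmrt2 and Adgrf5 marked the type A side and Hmx2 and Insrr the type B side. They were taken from fixed lists of 6 type A and 4 type B markers. Those kept differed at least 2-fold between untreated type A-like and type B-like subclusters, and Spink8, Avpr1a, Slc4a9 and Oxgr1 were left out. A cell was on the type A side if at least 80% of its UMIs of these markers were of type A. It was on the type B side at 60% or less. The type A side held 65 of 122 cells at day 2 (53.3%; 44.0 to 62.4), 52 of 93 at day 30 (55.9%; 45.2 to 66.2) and 572 of 838 untreated (68.3%; 65.0 to 71.4). When the cells were clustered again among themselves, 121 day 2 cells and all 93 day 30 cells fell in subclusters assigned to neither type. Over all intercalated-like cells at day 2, each type A side marker was below untreated and each type B side marker above. Aqp6 had 298.7 against 610.8 CPM and Hmx2 320.1 against 194.3 CPM. All markers left out were below untreated at day 2, including the type B markers Oxgr1 (157.5 against 222.3 CPM) and Slc4a9 (116.3 against 122.0 CPM). At day 30 Dmrt2 was above untreated (249.2 against 218.1 CPM) and Insrr below (81.3 against 98.2 CPM). The other side markers kept their day 2 direction. The part of these shifts in the division and in the ratios within a side was not tested. In untreated cells the exchangers followed the division: Slc4a1 had 1019 CPM on the type A side and 3.06 on the type B side, and Slc26a4 11.2 and 1056.5 CPM.

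Slc4a1 was lower within the type A side. It had 308.7 CPM at day 2 and 253.9 at day 30, against 1019 CPM untreated, ratios of 0.303 (0.262 to 0.349) and 0.249 (0.207 to 0.297). It had a UMI in 36 of 65 type A side cells at day 2, 28 of 52 at day 30 and 553 of 572 untreated. At day 2, 2 of 29 measured members were higher and 4 lower on the type A side, against 9.55% and 8.83% of all measured genes. At day 30, 0 of 26 were higher and 3 lower, against 12.2% and 6.24%. Rhbg (262.9 at day 2 and 314.3 at day 30, against 704.5 CPM) was lower at both times, Rhcg (113.1 against 340.3 CPM) and Atp6v0a4 (611.3 against 1342 CPM) at day 2, and Atp6v1c2 (354.6 against 800.7 CPM) at day 30. Slc26a4 had 183.4 CPM on the type A side at day 2 against 11.2 untreated, but 87 of its 120 UMIs there were in 3 cells. It had a UMI in 11 of 65 type A side cells at day 2 and 24 of 572 untreated. Car15 (26.0 against 10.4 CPM) was the other member called higher.

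The type B side had 43 cells at day 2 and 40 at day 30, too few to be compared, against 239 untreated, and its values are given without calls. Slc26a4 had 1478 CPM at day 2 and 744.6 at day 30, against 1056.5 untreated. Rhbg had 121.9 and 160.9 CPM against 577.1, and Atp6v0a4 678.1 and 1016 CPM against 1369. Car15 had 89.5 and 33.6 CPM against 221.7, and on the untreated type A side it had 10.4 CPM.

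**Figure D4:**
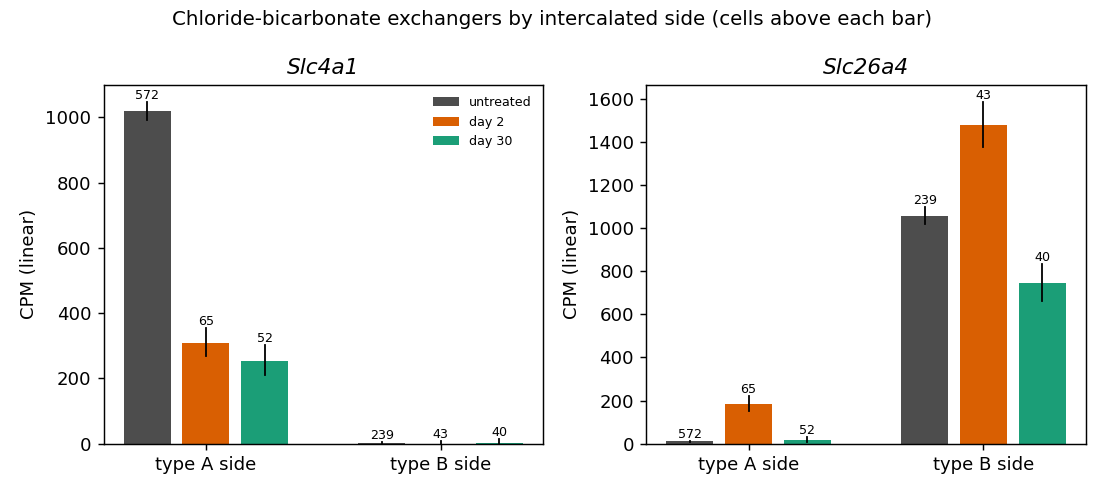
Level (CPM, linear axis from 0) of Slc4a1 and Slc26a4 on the type A and type B side of intercalated-like cells, untreated and at days 2 and 30, with exact 95% counting intervals and the number of cells above each bar. Slc4a1 is 1019 CPM on the untreated type A side and 308.7 and 253.9 CPM at days 2 and 30.

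Other acid-base genes were counted from lists outside the 33. In intercalated-like cells, of 15 genes for pump assembly and partners in the files, 11 were measured at day 2 with 0 higher and 1 lower, and 12 at day 30 with 2 higher and 0 lower, beside 10.2% higher and 8.11% lower of all measured genes at day 2 and 8.9% and 4.71% at day 30. The 2 were Dmxl2, part of the complex that assembles the pump, at 74.8 CPM at day 30 against 25.6 untreated, and Tcirg1, the a3 subunit of bone-resorbing cells, at 20.6 against 4.01 CPM. Markers of macrophages or monocytes summed to 1551 CPM in these day 30 cells and to 31.1 CPM in the untreated ones, and macrophage- or monocyte-like cells had 101.5 CPM of Tcirg1 at day 30 and endothelial-like cells 20.8 CPM; their part in the Tcirg1 level was not tested. Atp4a, the gastric proton-potassium pump, was lower at day 2 (20.6 CPM) and day 30 (21.7 CPM) than untreated (53.3 CPM). Pck1, Car4 and Slc4a4, genes of the proximal tubule, were also called lower at both times. Pck1 had 0 and 3.25 CPM at days 2 and 30 against 120.9 untreated, but untreated endothelial-like cells had 237.6 CPM of it, so the untreated level is below that of cells that should lack the gene. Of 8 sodium-proton exchangers, 3 were measured at each of days 2 and 30 and 0 were called. Of 10 bicarbonate carriers, 2 were measured at day 2 and 3 at day 30, of 12 other carbonic anhydrases 2 each time, and of 6 genes of ammonia synthesis 4 each time, with 1 lower and 0 higher in each list, beside the same shares of all genes.

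Principal-like cells, which share the collecting duct, had 10 of 28 measured members (35.7%) lower at day 2 and 0 higher, against 7.77% and 6.93% of all measured genes. At day 30, 5 of 28 (17.9%) were lower and 0 higher, against 6.1% and 10.4%. Rhbg, which these cells also use, had 458.9 CPM untreated and 115.3, 43.0 and 61.6 CPM at days 2, 7 and 30. Rhcg had 615.3, 335.3, 140.9 and 160.5 CPM and was lower at day 30. Both ammonia channels were thus lower in the neighbouring cell type as well. Members that mark intercalated cells were among the day 2 calls: Slc4a1 had 1.62 CPM at day 2 against 94.1 untreated, Slc26a4 2.70 against 56.5, Atp6v1g3 63.0 against 368.4 and Foxi1 11.9 against 36.1, with the direction of Foxi1 turned (log2 0.052) when the members were kept among the clustering genes. The d and C forms Atp6v0d2 (12.2 against 58.9 CPM) and Atp6v1c2 (7.19 against 81.7 CPM), the A subunit Atp6v1a (299.1 against 677.2 CPM), Car12 (36.3 against 103.9 CPM) and Car15 (15.6 against 41.6 CPM) made up the rest of the day 2 calls. At day 30, Atp6v1f, a subunit of the central V1 stalk (576.7 against 1227 CPM), Slc4a1 (22.5 against 94.1 CPM) and Car15 (11.2 against 41.6 CPM) were lower beside the ammonia channels. In that setting 6 members were lower at day 2, beside 8.09% of all genes. The 14 intercalated markers summed to 1338 CPM in day 2 principal-like cells and 2079 CPM in untreated ones, and the 4 type B markers to 7.37 CPM against 77.7 CPM; the part of intercalated RNA in these calls was not tested. Untreated principal-like cells were, but for 1, in clusters 39 and 40, made by dividing a cluster shared with the connecting tubule, and later ones in clusters 20 and 28. The untreated class depended on the setting. It held 322 cells here, 7 with no mitochondrial limit and 0 with doublets removed at the mean threshold, so the principal-like calls could not be checked in those settings.

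In proximal tubule-like cells, which reclaim most filtered bicarbonate, 1 of 21 measured members was higher at day 2 and 1 lower, against 19.3% and 4.32% of all measured genes. At day 7, 1 of 21 was higher and 4 (19.0%) lower, against 35% and 9.42%, and at day 30, 1 of 20 was higher and 4 (20.0%) lower, against 33.2% and 7.61%. In either direction 23.6, 44.4 and 40.8% of genes were called at days 2, 7 and 30. The median of all measured genes was 0.35, 0.54 and 0.51 on the log2 scale at days 2, 7 and 30, and with median-of-ratios scaling the splits were 0 higher and 1, 6 and 7 lower, beside 8.45, 13.2 and 12.9% higher and 10.9, 21.5 and 20.2% lower of all genes. Car14 had 99.2 CPM untreated and 110.6, 4.92 and 8.58 CPM at days 2, 7 and 30. Car12 had 101.5, 183.9, 22.9 and 28.3 CPM, and Atp6v0a4 156.1, 120.5, 57.7 and 67.2 CPM. These 3 were near or above the untreated level at day 2 and lower at days 7 and 30. Car2 had 321.7, 861.6, 620.4 and 462.3 CPM and was called higher at day 2, 2.68-fold (2.53 to 2.84). Atp6v0a1, the a form of most cells, had 14.5, 21.7, 36.2 and 30.4 CPM and was called higher at days 7 and 30. Neither Car2 nor Atp6v0a1 was called higher with median-of-ratios scaling. Atp6v1g3, lower at each time, had 29.4 CPM untreated beside 38.2 CPM in untreated endothelial-like cells, so its untreated level is below that of cells that should lack it. With 10% free RNA subtracted its direction turned at days 7 and 30 (log2 0.27 and 0.39), and it turned at day 30 in cells above the common UMI floor (0.41).

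In thick ascending limb-like cells, 1 of 23 measured members was higher and 3 lower at day 2, against 13.5% and 10.6% of all measured genes. At day 7, 1 was higher and 6 lower of 23, against 23.4% and 9%, and at day 30, 1 was higher and 6 lower of 23, against 25% and 9.25%. With median-of-ratios scaling the splits were 0 higher and 10 lower at day 7, beside 8.74% and 17.7% of all genes, and 0 and 12 at day 30, beside 10.8% and 18.4%. In either direction 24.2, 32.4 and 34.2% of genes were called at days 2, 7 and 30. The member called higher was Atp6v0d2 at 17.8 CPM untreated and 48.4, 37.5 and 46.6 CPM at days 2, 7 and 30, a call lost at days 7 and 30 under that scaling. Atp6v1c2 had 40.8, 4.29, 1.498 and 1.94 CPM and was lower at each time. Atp6v1e1, the common stalk subunit E, had 670.4, 512.9, 301.5 and 293.8 CPM and was lower at days 7 and 30. Atp6v1b1 had 80.3, 34.9, 28.8 and 46.4 CPM and was lower at days 2 and 7, Car15 had 51.2, 16.4, 40.8 and 5.82 CPM and was lower at days 2 and 30, and Atp6v1g3 had 50.6, 42.4, 4.49 and 8.96 CPM and was lower at days 7 and 30, with its direction turned at day 30 when 10% free RNA was subtracted (log2 0.16). Untreated endothelial-like cells had 38.2 CPM of Atp6v1g3. Atp6v0a4 (111.8 against 227.2 CPM) and Atp6v1a (191.5 against 394.3 CPM) were also lower at day 7, and Atp6v1f (331.1 against 718.9 CPM) and Car12 (16.0 against 39.1 CPM) at day 30.

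In distal or connecting tubule-like cells, 1 of 23 was higher and 6 lower at day 2, against 15.6% and 9.65%, and 2 of 24 higher and 2 lower at day 30, against 18.9% and 4.03%; median-of-ratios scaling gave 0 higher and 7 lower at day 2, beside 9.28% and 14.4% of all genes, and 0 and 4 at day 30, beside 7.44% and 9.28%. Rhbg (17.5 CPM at day 2 and 17.0 at day 30, against 121.7 untreated) and Rhcg (59.6 and 86.7 against 190.9 CPM) were lower at both times there. Car2 (4.61 against 62.5 CPM), Atp6v1f (469.8 against 943.1 CPM), Atp6v1c2 (2.31 against 27.3 CPM) and Atp6v1g3 (11.7 against 30.6 CPM) were lower at day 2, the last with its direction turned when free RNA was subtracted (log2 0.15). Car12 (48.6 against 23.5 CPM) was called higher at day 2 and Atp6v1g3 (65.1 against 30.6 CPM) and Atp6v0d2 (26.3 against 7.13 CPM) at day 30, and all 3 directions turned with no mitochondrial limit and with the other doublet threshold. Without a mitochondrial limit the class held 1236 untreated cells, against 331 with it, while untreated principal-like cells numbered 7 against 322, so its makeup differed. Then 0 members were higher and 13 lower at each time, beside 9.71% of all genes lower at day 2 and 8.17% at day 30.

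In macrophage- or monocyte-like cells the other subunit forms were the main ones, with 1 exception. At day 30, Atp6v0a4 made up 5.21% of the a subunit, Atp6v1b1 2.13% of the B subunit and Atp6v1g3 1.40% of the G subunit. The a subunit was counted without Tcirg1, which these cells also had at day 30. At day 2, 0 of 23 measured members were higher than in other tubule-like cells and 9 lower, against 20.9% and 22.7% of all measured genes. At day 7, 2 of 21 were higher and 4 lower, against 12.3% and 17.9%, and at day 30, 3 of 22 were higher and 6 lower, against 12.9% and 24.4%; with median-of-ratios scaling day 30 had 6 higher and 6 lower, beside 17.9% and 18.1%. Against other tubule-like cells at day 2, the lower members were Car2 (4.54 against 305.0 CPM), Atp6v0a4 (2.35 against 168.4), Rhcg (1.75 against 96.5), Atp6v1b1 (1.21 against 64.3), Car12 (1.40 against 49.95), Rhbg (0.476 against 32.5), Atp6v1g3 (4.70 against 36.8), Atp6v0d2 (3.37 against 27.2) and Atp6v1a (125.1 against 285.0). At day 7, Atp6v0d2 (167.9 against 9.33 CPM) and Atp6v0a1 (71.1 against 34.5) were higher and Car2 (85.2 against 539.2), Atp6v0a4 (20.6 against 80.6), Car12 (4.35 against 25.2) and Atp6v0e2 (5.34 against 20.6) lower. At day 30, Atp6v0d2 (279.8 against 30.5 CPM), Atp6v0a1 (93.4 against 31.4) and Atp6ap2 (167.0 against 82.3) were higher, and Car2 (15.2 against 352.2), Atp6v0a4 (7.15 against 117.4), Atp6v1g3 (5.49 against 62.9), Atp6v1b1 (3.11 against 38.4), Rhcg (1.59 against 24.0) and Car12 (3.61 against 29.2) lower. The exception was Atp6v0d2, known from osteoclasts and macrophages, with 3.37, 167.9 and 279.8 CPM at days 2, 7 and 30. It was 83.1-fold higher (68.5 to 102) at day 30 than at day 2. After thinning, 0.456% of cells had its UMI at day 2, 20.1% at day 7 (interval 16.3 to 24.4), 28.7% at day 30 (26.1 to 31.4) and 2.36% (0.490 to 6.75) of day 30 endothelial-like cells. The untreated library had 49 such cells and was not compared.

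Set against day 2, 2 of 16 measured members were higher at day 30 and 0 lower, against 8.26% and 7.69% of all measured genes. These were Atp6v0d2 and the A subunit Atp6v1a, the second at 257.3 against 125.1 CPM, 2.06-fold (1.97 to 2.15). At day 7, 5 of 19 were higher and 0 lower, against 9.86% and 4.89%: Atp6v0d2, Car2 (85.2 against 4.54 CPM), Atp6v1g3 (22.2 against 4.70 CPM), Atp6v0a4 (20.6 against 2.35 CPM) and Atp6v1d (124.7 against 62.3 CPM). Without cluster 32, whose leading genes include the tubule injury gene Havcr1, the day 7 count was 1, Atp6v0d2. Of all measured genes, 4.936% were then higher and 3.797% lower, so the background share of higher genes fell as well. Car2 had 228.0 CPM in cluster 32 at day 7 and 11.9 and 19.5 CPM in clusters 4 and 7. Atp6v0d2 lay in cluster 4, led by Gpnmb and Mmp12, with 301.2 CPM at day 7 and 294.9 CPM at day 30, against 46.0 and 22.3 CPM in clusters 32 and 7 at day 7. Day 2 cells were in clusters 2 and 7, with 4.56 and 1.69 CPM, so cluster and library cannot be fully told apart; in cluster 7 alone Atp6v0d2 had 22.3 CPM (15.2 to 31.5) at day 7 against 1.69 (1.06 to 2.56) at day 2. Neutrophil-like cells, all from day 2, had 1.99 CPM of Atp6v0d2 and 156.6 CPM of Atp6v0a1.

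**Figure D5:**
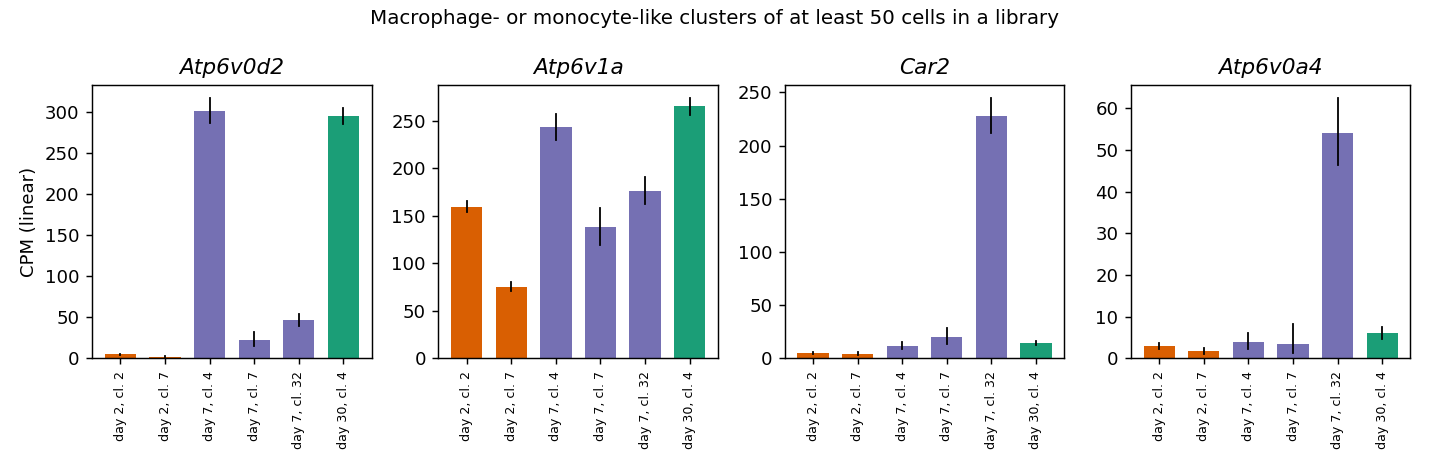
Level (CPM, linear axis from 0) of 4 members in macrophage- or monocyte-like clusters (cl.) with at least 50 cells in a library, with exact 95% counting intervals. Atp6v0d2 is high in cluster 4 at days 7 and 30, and Car2 and Atp6v0a4 are high in cluster 32.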

How the data were processed

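Kidney cells sorted for GFP were captured with 10x Genomics 3′ v3.1 chemistry, per the labels' protocols. Cell Ranger 7.0.1 and mm10 are named in the submitters' processing notes, whereas the matrix headers carry software version 3.0.1. The deposited matrices hold raw UMI counts per gene and barcode. Barcodes with at least 500 UMIs, 300 genes and at most 50% mitochondrial UMIs were kept, and doublets called by Scrublet were removed (1 in the untreated library, 630, 10 and 584 later). Cells were clustered with scanpy 1.11.5 (2000 variable genes without the 33 members, 30 principal components, 15 neighbours, Leiden resolution 1, seed 0). Clusters were named from marker lists holding no member. The naming thresholds and the division of 1 contested cluster were chosen after the clusters had been seen. Counts were summed by class and library, scaled to CPM, and compared by the size rule given with the results, with log2 differences at a pseudocount of 10 CPM. Ratio and level intervals are exact Poisson, and intervals of shares are Clopper-Pearson, all at 95%. Values in every library are given for the 9 other acid-base genes and for the subunit forms in intercalated-like cells, and the members called in a comparison are named, up to the 12 with the largest log2 difference. Promoters are from RefSeq. The members and lists were chosen with earlier results of these data known. With 1 library per group no test across samples was possible.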

Additional observations from a re-analysis of the deposited data

Results flagged for a closer look

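In 6 cases a member was called higher in one cell class and lower in another at the same time after injury; each difference between classes rests on 1 library per group and was not tested. Slc26a4 at day 2 had a log2 difference of 1.03 in intercalated-like and -2.39 in principal-like cells, 3.42 apart. Car2 at day 2 had 1.39 in proximal tubule-like and -2.31 in distal or connecting tubule-like cells, 3.70 apart. Atp6v0d2 at day 2 had 1.07 in thick ascending limb-like and -1.63 in principal-like cells, 2.70 apart. Car12 at day 2 had 0.81 in distal or connecting tubule-like and -1.30 in principal-like cells, 2.10 apart. Atp6v1g3 at day 30 had 0.89 in distal or connecting tubule-like cells, against -1.68 in thick ascending limb-like cells, 2.56 apart, and -0.92 in proximal tubule-like cells, 1.81 apart. The intercalated-like Slc26a4 call was lost with median-of-ratios scaling and with the other doublet threshold, and the proximal tubule-like Car2 call with median-of-ratios scaling. The principal-like values could not be checked with no mitochondrial limit or the other doublet threshold, where the untreated class held 7 and 0 cells. The values of Car12 and Atp6v1g3 in distal or connecting tubule-like cells turned negative with no mitochondrial limit and with the other doublet threshold. The Atp6v1g3 values at day 30 also turned positive with 10% free RNA subtracted in thick ascending limb-like (0.16) and proximal tubule-like cells (0.39), and in proximal tubule-like cells above the common UMI floor (0.41).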

How the results depend on the processing

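No paired analysis was possible because each group has 1 library, so no replicate could be left out either. Over 1169 values of single members under the alternatives, 792 moved little, 362 moved and 15 reversed. Among the same 1169 values 74 calls were lost, and the cause was not tested. Of the 792, 161 are from the setting without a minimum CPM. It changes which genes are measured and not their levels, so these 161 could not move. Numbers of members called moved as follows. Without a minimum CPM they were 9, 12 and 12 in proximal tubule-like cells at days 2, 7 and 30, 7, 13 and 13 in thick ascending limb-like cells, 14 and 9 in macrophages at days 7 and 30 against day 2, and 18, 12 and 18 in macrophages over tubule at days 2, 7 and 30. Of all genes, 22.6, 39.8 and 39.9% were then higher and 3.61, 8.94 and 6.45% lower in proximal cells. Thick limb cells had 17.6, 23.8 and 28.6% higher and 10.4, 9.26 and 8.84% lower. Macrophages against day 2 had 20.4 and 19.0% higher and 5.38 and 7.40% lower. Macrophages over tubule had 18.6, 13.1 and 12.7% higher and 30.7, 22.6 and 30.8% lower. With no mitochondrial limit the numbers were 4 and 9 in proximal tubule-like cells at days 2 and 7, and 13 at both times in distal or connecting tubule-like cells (reversed log2: Car12 -0.92 at day 2, Atp6v1g3 -2.00 and Atp6v0d2 -1.05 at day 30). Of all genes, 34.6 and 51.6% were higher and 2.69 and 6.59% lower in these proximal cells. The distal cells had 8.09 and 5.42% higher and 9.71 and 8.17% lower at days 2 and 30. With the other doublet threshold the numbers were 19 in intercalated-like cells at day 30 (a class of other makeup, with 314 cells against 93 while principal-like cells numbered 4 against 229, and 8.38% of all genes lower), 12 and 9 in distal or connecting tubule-like cells at days 2 and 30, and 1 in macrophages at day 7 (reversed: Car12 -0.57, Atp6v1g3 -1.98 and Atp6v0d2 -0.55 in distal cells, Atp6v1g3 -0.25 in macrophages). Of all genes, 7.54 and 8.67% were higher and 9.81 and 5.96% lower in these distal cells. The macrophages had 4.90% higher and 3.78% lower. With 10% free RNA subtracted the numbers were 3 in proximal tubule-like cells at day 30, 4 in thick ascending limb-like cells at day 7, 4 in distal cells at day 2 and 3 in macrophages at day 7 (Atp6v1g3 reversed to 0.27 and 0.39 in proximal cells at days 7 and 30, 0.16 in thick limb cells at day 30 and 0.15 in distal cells at day 2). Of all genes, 34.6, 24.1, 15.5 and 9.24% were higher and 7.34, 8.87, 9.43 and 4.68% lower in these comparisons, in the same order. Median-of-ratios scaling gave 1 in proximal cells at day 2, 12 in thick limb cells at day 30 and 3 in macrophages at day 7. Beside these, 8.45, 10.8 and 9.29% of all genes were higher and 10.9, 18.4 and 5.52% lower. With members kept for clustering, principal-like cells at day 2 had 6 and macrophages at day 7 had 1 (reversed: Foxi1 0.052, Atp6v1g3 -0.23). Beside these, 7.38 and 4.96% of all genes were higher and 8.09 and 3.62% lower. At resolution 0.5, macrophages had 3 at day 7 and 1 at day 30. Against day 2, 9.05 and 7.76% of all genes were higher and 4.68 and 7.17% lower. With cells above 18362 UMIs, macrophages at day 30 had 4, and Atp6v1g3 reversed to 0.41 in proximal cells at day 30. In day 30 macrophages against day 2, 9.82% of all genes were then higher and 9.55% lower. Without the cluster led by Havcr1, an alternative chosen after seeing the data, macrophages at day 7 had 1 and Atp6v1g3 -0.23. Beside these, 4.936% of all genes were higher and 3.797% lower. Classes under 50 cells gave no value for distal cells at resolution 0.5, for principal-like cells with no mitochondrial limit or the other doublet threshold, and above 18362 UMIs for all comparisons of intercalated-like, principal-like and distal cells, proximal cells at day 2 and thick limb cells at day 30.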
